A study of Mus musculus with 33 samples.

Results

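The genes of bone morphogenetic protein (BMP) and transforming growth factor beta (TGF-beta) signalling were followed in enteric neural crest cells (ENCCs) of the mouse and in the whole gut they colonise. The set holds 51 genes, all of which had a probe set on the array that the platform annotation assigns to exactly 1 gene, of 18193 such genes in all. They were taken as 13 ligands, 10 receptors, 8 SMADs, 10 antagonists and extracellular modulators, and 10 targets and regulators of SMADs. ENCCs are the migratory precursors of enteric neurons and glia. GDNF-treated ENCCs received 50 ng/ml of GDNF, the ligand of the receptor tyrosine kinase RET. Untreated ENCCs were the other well of cells from the same gut, so each of the 9 guts gave a pair. Both wells held cells sorted for YFP at embryonic day 14.5 from C57BL/6 mice with Wnt1-Cre-recombinase and, as a reporter, LoxP/R26-YFP, and both were kept in the same medium with FGF and EGF at 20 ng/ml. Wnt1-Cre marks the neural crest lineage as a whole, so neurons, glia and precursors all carry YFP. Whole gut was 8 wild type C57BL/6 guts of the same age, each dissected from duodenum to anus. The labels describe no GDNF and no sort for it, and how long ENCCs were cultured is not stated in them.

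RNA was read on 33 Affymetrix arrays, 13 of GDNF-treated ENCCs, 12 of untreated ENCCs and 8 of whole gut. The arrays fall in 2 batches named in the titles, and whole gut is present only in batch 2. The deposited value of a probe set is a score and not an expression level: each array had been turned into normal quantiles of its ranks, after scaling of each probe set on the ENCC arrays. A score of 0 is the middle of its array, and a difference of 1 is about 1 SD of a probe set among ENCC arrays. No fold change or level can be taken from the scores, and a move shared by every gene would be lost in the ranks. The score of a gene is the mean of its probe sets, and the 51 genes had 112 probe sets.

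BMPs, TGF-betas, activins and their relatives are secreted dimers that bind a pair of type I and type II receptor kinases. Receptors of the BMP branch phosphorylate SMAD1, SMAD5 and SMAD9, and those of the TGF-beta and activin branch phosphorylate SMAD2 and SMAD3. Phosphorylated SMADs join SMAD4 and act on genes in the nucleus, among them the Id genes and the inhibitory SMADs 6 and 7, which close a negative feedback loop. In the developing gut, BMP ligands come largely from the mesenchyme, and BMP signalling is known to affect the migration of ENCCs and their differentiation into neurons and glia.

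Promoters of 4 genes that fell with GDNF are shown because they hold a letter match to a motif of SMAD proteins near the start of transcription. The sequences are those of RefSeq on GRCm38.p6, each with 250 bases before and 50 bases after the annotated start, and 38 of the 51 genes have at least 1 such entry, 48 in all. Both strands were searched for GTCTAGAC, the palindromic SMAD binding element, and for GGCGCC, a GC-rich element bound by SMADs of the BMP branch, and the matches are in capitals. Both motifs read the same on both strands, and their letters do not let one overlap the other. Smad6 encodes an inhibitory SMAD, Id2 a helix-loop-helix inhibitor, Tgfbi a matrix protein induced by TGF-beta, and Smurf2 a ubiquitin ligase that acts on SMADs and receptors.
Smad6, chr9:64022010-64022309 (minus strand): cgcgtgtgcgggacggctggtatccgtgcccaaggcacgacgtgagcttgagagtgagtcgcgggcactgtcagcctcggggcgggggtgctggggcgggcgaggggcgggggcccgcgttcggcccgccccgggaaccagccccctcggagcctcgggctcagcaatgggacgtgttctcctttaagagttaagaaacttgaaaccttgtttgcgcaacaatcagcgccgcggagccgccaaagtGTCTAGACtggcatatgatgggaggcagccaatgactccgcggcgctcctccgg
Id2, chr12:25096043-25096342 (minus strand): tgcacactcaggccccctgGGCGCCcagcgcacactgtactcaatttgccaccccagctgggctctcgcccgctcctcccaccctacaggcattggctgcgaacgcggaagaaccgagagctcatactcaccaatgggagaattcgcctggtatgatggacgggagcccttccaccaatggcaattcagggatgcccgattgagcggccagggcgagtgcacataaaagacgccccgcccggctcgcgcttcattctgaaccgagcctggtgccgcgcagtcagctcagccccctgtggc
Tgfbi, chr13:56609336-56609635 (plus strand): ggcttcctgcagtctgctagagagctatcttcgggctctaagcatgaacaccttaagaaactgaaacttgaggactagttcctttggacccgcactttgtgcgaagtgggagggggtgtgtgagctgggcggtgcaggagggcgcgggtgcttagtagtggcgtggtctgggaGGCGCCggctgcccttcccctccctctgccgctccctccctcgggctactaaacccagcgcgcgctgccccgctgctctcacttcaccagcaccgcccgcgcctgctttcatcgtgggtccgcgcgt
Smurf2, chr11:106920666-106920965 (minus strand): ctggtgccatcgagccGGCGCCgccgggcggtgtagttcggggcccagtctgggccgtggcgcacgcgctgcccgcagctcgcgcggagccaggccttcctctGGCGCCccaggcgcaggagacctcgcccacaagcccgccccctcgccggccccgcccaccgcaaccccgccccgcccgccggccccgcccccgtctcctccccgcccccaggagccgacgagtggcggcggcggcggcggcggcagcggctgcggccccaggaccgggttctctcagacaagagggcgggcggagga
The Smad6 match to GTCTAGAC begins at base -4 and runs across the annotated start. That motif was present in 70 of 32851 promoters of all genes (0.213%) and in 1 of the 48 entries of this set (2.08%). GGCGCC was present in 11.9% of all promoters and in 15 of the 48 entries (31.2%), from 14 genes. These matches describe letters only. Of the 14 genes with GGCGCC, 4 fell with GDNF (Id2, Tgfbi, Smad5 and Smurf2) and 10 were not called, among them Bmpr1a, Id4, Ski and Grem1. In the whole set 23 of 51 genes fell (45.1%). Only 38 of the 51 have a promoter entry, so this share takes in genes that were not searched. Falls among searched genes without the motif were not counted.

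The labels of the cells were checked on marker genes. Of 7 measured ENCC markers (3 more of the list were not analysed here), Ret, Sox10, Gfra1 and Ngfr were higher in untreated ENCCs than in whole gut and none was lower. The mean score of the list on batch 2 arrays was -0.23 to 0.39 in GDNF-treated ENCCs and -0.59 to 0.61 in untreated ENCCs, against -1.24 to -1.12 in whole gut. All 10 epithelial and all 8 endothelial markers were lower in untreated ENCCs than in whole gut. Of other lists, 6 of 14 mesenchyme, 5 of 8 smooth muscle and 5 of 8 macrophage markers were lower, and the macrophage marker Adgre1 was higher. The mesenchyme markers Pdgfrb, Osr1, Foxf2, Foxl1, Col1a1, Col1a2, Col3a1 and Twist1 were not called between untreated ENCCs and whole gut. How many such cells the sort left was not tested. The cell type field of the whole gut arrays also names ENCCs, while their source name gives embryonic gut, and the markers set them apart from the sorted cells. For the 7 RNAs read in both batches, scores of the 51 genes correlated between batches with r from 0.12 for the untreated well of gut 3 to 0.761 for the untreated well of gut 9, a description over genes that share an array. The untreated RNA of gut 3 thus stands apart, and results were computed with and without its batch 2 array. Without it 24 of the 51 genes fell with GDNF in the test described next, the 23 given there and Inhbb. Over all genes 13.9% fell in that setting.

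With GDNF, every gene of the set that passed the test was lower, and these genes were most frequent among SMADs, antagonists and targets. Of the 51 genes, 23 fell and 0 rose against the untreated well of the same gut (limma on 9 paired differences, Benjamini-Hochberg adjusted over all genes, threshold 0.05). At an unadjusted p under 0.05, 30 were lower and 2 were higher, and 7483 of all 18193 genes passed in either direction. At the adjusted threshold 31.5% of all genes were called, 13.2% as falls and 18.3% as rises. The share of falls in the set was 45.1%, against 13.2% over all genes. The median difference of the 51 genes was -0.74, against 0.0055 for all genes, and 41 of the 51 lay below 0. In single guts, 33 to 45 of the 51 genes were lower in the GDNF well, with a median difference of -0.41 in gut 1 to -1.09 in gut 6. Among all genes 44.3% to 50% were lower in a gut. By role, 4 of 13 ligands, 1 of 10 receptors, 5 of 8 SMADs, 6 of 10 antagonists and modulators, and 7 of 10 targets and regulators fell. Bmp1, counted with the ligands, is a protease, and without it 3 of 12 ligands fell. Of the 23 genes, 14 were lower in all 9 guts, and 6.03% of all genes fell in this way. Guts 3, 8 and 9 enter as the mean of their 2 batches. Taken by batch, 9 of the 14 lay below 0 in every value, and Smad4, Smad6, Ltbp3, Tgfbi and Smurf1 each had 1 value above 0.

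**Figure D1:**
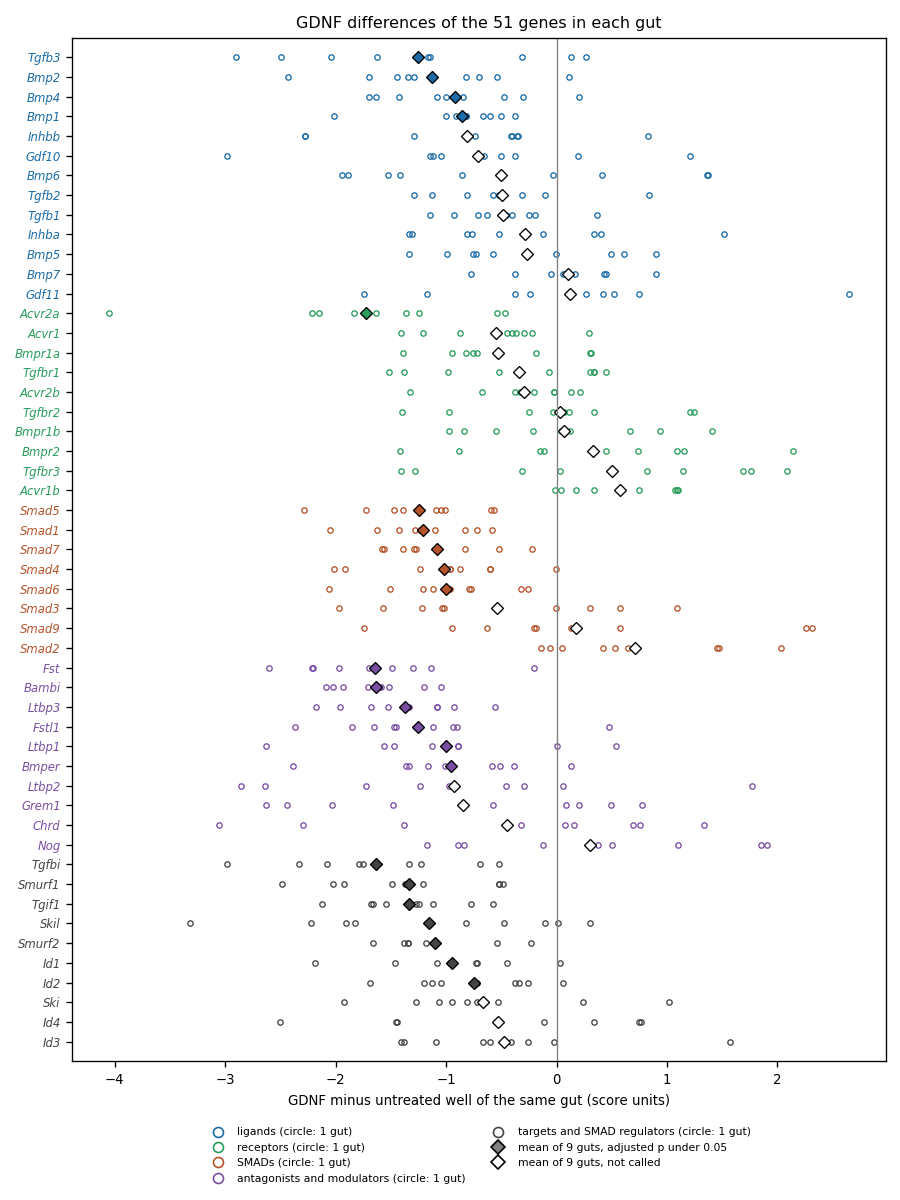
Difference in score between the GDNF-treated and the untreated well (horizontal axis, score units) for each of the 51 genes (vertical axis, grouped and coloured by role). Circles are the 9 guts and diamonds their mean, filled where limma's adjusted p was under 0.05; all 23 filled diamonds lie left of 0, from -1.72 for Acvr2a to -0.74 for Id2.

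Among the ligands, Bmp1, Bmp2, Bmp4 and Tgfb3 fell. Bmp4, the BMP of gut mesenchyme that also acts on ENCCs, had a lowest, median and highest difference of -1.70, -0.999 and 0.20 over the 9 guts, below 0 in 8. Its mean was -0.92 ± 0.64 (SD, n = 9, adjusted p = 0.00925), and with hybridisation controls as a covariate it did not pass (-0.63, adjusted p = 0.104). Bmp2, its closest relative, had -2.43, -1.29 and 0.11, also below 0 in 8 guts, with gut 4 as the exception, and fell by a mean of 1.13 ± 0.74 (adjusted p = 0.00402). Bmp1, which despite its name is a metalloprotease that cleaves procollagens and the BMP antagonist chordin, had -2.02, -0.82 and -0.38 and lay below 0 in every gut. Gut 9 lay apart in Bmp1, and the mean was -0.86 ± 0.48 (adjusted p = 0.00717), which did not pass with the hybridisation controls as a covariate (-0.69, adjusted p = 0.0681). Tgfb3 was at -1.25 ± 1.13 (adjusted p = 0.0108), lower in 7 guts and above 0 in guts 1 and 4.

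The other TGF-beta ligands did not pass the test. Tgfb1 had a lowest, median and highest difference of -1.15, -0.46 and 0.36, below 0 in 8 of 9 guts, and a mean of -0.48 ± 0.44 (SD, n = 9, adjusted p = 0.0936). Its 2 probe sets differed, at -0.99 and 0.025, and the one more reproducible between batches passed alone (adjusted p = 0.00674). Reproducibility was taken over RNAs of both wells, so here and below that choice can favour a probe set that differs with GDNF. Tgfb2 had -1.29, -0.52 and 0.84, with gut 1 alone above 0, and a mean of -0.49 ± 0.62 (adjusted p = 0.133). Without gut 1 it passed, at -0.66 (adjusted p = 0.0291). Inhba and Inhbb encode the beta chains of activins. Inhbb averaged -0.81 ± 0.996 (adjusted p = 0.0595); the test was passed without gut 2 (-1.01), without the untreated array of gut 3 in batch 2 (-0.85) and in batch 1 alone (-1.04). Inhba was at -0.29 ± 0.92, with 1 probe set at -1.50 and the other at 0.92. Gdf10, a BMP3 relative, was at -0.72 ± 1.13 and passed without gut 1 (-0.96). Bmp5, Bmp6, Bmp7 and Gdf11 had means of -0.26, -0.50, 0.10 and 0.12, and their guts lay on both sides of 0.

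Of the receptors only Acvr2a fell. It encodes a type II receptor shared by activins and several BMPs, and its differences over the 9 guts had a lowest, median and highest value of -4.05, -1.64 and -0.47. All 9 lay below 0, and gut 2 lay apart from the other guts, which ran up from -2.22. The mean of -1.72 ± 1.07 (SD, n = 9, adjusted p = 0.00117) was the largest in size of the 51 genes, an order that depends on the scaling of the scores and is no order of fold. The type I receptors of the BMP branch were at -0.53 ± 0.57 for Bmpr1a (adjusted p = 0.0951), 0.064 ± 0.81 for Bmpr1b and -0.55 ± 0.53 for Acvr1 (adjusted p = 0.0739). Acvr1 passed without gut 4 (-0.65, adjusted p = 0.0453) and with the median of its probe sets (-0.82), and Bmpr1a passed with its most reproducible probe set (-1.08). Bmpr2, the type II receptor specific to BMPs, was at 0.33 ± 1.10, and the activin receptor Acvr2b at -0.29 ± 0.48. The TGF-beta receptors Tgfbr1, Tgfbr2 and the co-receptor Tgfbr3 (betaglycan) were at -0.34 ± 0.79, 0.036 ± 0.87 and 0.50 ± 1.31, and none passed. Acvr1b, a type I receptor of activins, was higher in 8 of 9 guts, at 0.57 ± 0.46 (adjusted p = 0.0529), and passed as higher without gut 9 (0.64) and with its most reproducible probe set (1.36).

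The 5 SMAD genes that fell were Smad1, Smad4, Smad5, Smad6 and Smad7, and each of them was lower in all 9 guts. Smad1 and Smad5 carry the BMP signal. Smad1 had a lowest, median and highest difference of -2.06, -1.24 and -0.58 and a mean of -1.21 ± 0.47 (SD, n = 9, adjusted p = 0.000734). Smad5 had -2.29, -1.09 and -0.56 and a mean of -1.24 ± 0.55 (adjusted p = 0.000883). In both genes all 3 probe sets lay below 0, within -1.32 to -1.17. Smad4, the SMAD common to both branches, had -2.02, -0.97 and -0.0043, with gut 3 almost at 0, and a mean of -1.02 ± 0.64 (adjusted p = 0.00483). In batch 2 alone Smad4 was at -0.22, against -1.40 in batch 1.

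The inhibitory SMADs fell too. Smad6, whose promoter carries the GTCTAGAC match printed above, had a lowest, median and highest difference of -2.06, -0.96 and -0.26, and a mean of -1.001 ± 0.56 (SD, n = 9, adjusted p = 0.00396). Every gut lay below 0, with gut 1 nearest to it, but for gut 8 this was the mean of 0.99 in batch 1 and -3.42 in batch 2. The single probe set of Smad6 correlated between batches at -0.16 over the RNAs read in both. In batch 1 alone the gene did not pass (-0.68, adjusted p = 0.156), while batch 2 gave -1.68. Smad7, which blocks both branches, had -1.58, -1.27 and -0.22 and a mean of -1.08 ± 0.47 (adjusted p = 0.00157), and both of its probe sets lay below 0. The SMADs of the TGF-beta branch did not pass as lower. Smad2 was at 0.71 ± 0.77, above 0 in 7 of 9 guts (adjusted p = 0.053), and passed as higher without gut 3 (0.81), without gut 9 (0.82) and when the wells were not paired (0.70, adjusted p = 0.0364). Smad3 was at -0.54 ± 1.06 and Smad9, the third SMAD of the BMP branch, at 0.17 ± 1.37, with guts on both sides of 0.

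The 6 extracellular and membrane modulators that fell were Bambi, Fst, Ltbp3, Ltbp1, Fstl1 and Bmper. Bambi is a pseudoreceptor that lacks a kinase domain and dampens signalling of both branches, and it is itself induced by BMP. Its lowest, median and highest differences were -2.09, -1.61 and -1.04, so that every gut lay more than 1 score unit below 0, and the mean was -1.64 ± 0.36 (SD, n = 9, adjusted p = 7.67e-05). Fst encodes follistatin, which traps activins and some BMPs. It had -2.61, -1.70 and -0.20, with gut 1 nearest to 0, and a mean of -1.65 ± 0.72 (adjusted p = 0.000314). Ltbp3, which tethers latent TGF-beta to the matrix, had -2.17, -1.33 and -0.55, and its mean was -1.37 ± 0.52 (adjusted p = 4e-04) with all 4 probe sets below 0. Gut 3 was the smallest of the Ltbp3 falls, and in batch 2 that gut lay above 0.

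Its relative Ltbp1 was at -1.003 ± 0.91 (SD, n = 9, adjusted p = 0.0165) and the follistatin-like secreted protein gene Fstl1 at -1.25 ± 0.80 (adjusted p = 0.00273). Bmper, a secreted BMP-binding protein, was at -0.96 ± 0.73 (adjusted p = 0.0106) and did not pass when the wells were not paired (adjusted p = 0.145). The classic BMP antagonists did not pass. Nog, which encodes noggin, had a lowest, median and highest difference of -1.17, 0.38 and 1.91 and a mean of 0.30 ± 1.16 (adjusted p = 0.555), with 5 guts above and 4 below 0. Chrd (chordin) was at -0.45 ± 1.49 and Grem1 (gremlin) at -0.84 ± 1.32. Grem1 passed as lower with the hybridisation controls as a covariate (-1.37). Ltbp2, which does not bind latent TGF-beta, was at -0.93 ± 1.43 (adjusted p = 0.0952), with gut 9 at 1.77, and passed without that gut (-1.27, adjusted p = 0.0145).

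The Id genes, read in many cells as direct targets of BMP signalling, lay low but unevenly. Id proteins bind basic helix-loop-helix factors and hold back differentiation. Id1 had a lowest, median and highest difference of -2.18, -0.96 and 0.028, with gut 4 just above 0, and fell by a mean of 0.95 ± 0.62 (SD, n = 9, adjusted p = 0.00724). Id2 had -1.69, -0.72 and 0.059, again with gut 4 above 0, and fell by 0.74 ± 0.56 (adjusted p = 0.0213). The Id2 call did not hold without gut 7 (-0.63, adjusted p = 0.0614), without gut 8 (-0.69, adjusted p = 0.054) or with the median of its probe sets (-0.47, adjusted p = 0.134). When the wells were not paired neither gene passed, at an adjusted p of 0.0605 for Id1 and 0.106 for Id2. Id3 had -1.41, -0.60 and 1.57 and a mean of -0.47 ± 0.91 (adjusted p = 0.242). Only gut 4 lay above 0 in Id3, and the gene passed without it (-0.73, adjusted p = 0.0336). Id4 had -2.51, -0.52 and 0.76 and a mean of -0.53 ± 1.11 (adjusted p = 0.258), with 3 guts above 0.

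Other targets and SMAD regulators fell in every gut. Tgfbi had a lowest, median and highest difference of -2.98, -1.75 and -0.52, and a mean of -1.64 ± 0.78 (SD, n = 9, adjusted p = 0.000427), and its 4 probe sets lay close together, at -1.71 to -1.56. Tgif1, a homeodomain repressor of SMAD2 and SMAD3 targets, had -2.13, -1.27 and -0.57 and a mean of -1.33 ± 0.48 (adjusted p = 0.000402). No gut came nearer to 0 than -0.57 in Tgif1. The ubiquitin ligases that act on SMADs and receptors fell together. Smurf1 had -2.48, -1.38 and -0.49 and a mean of -1.34 ± 0.73 (adjusted p = 0.00129), and Smurf2 had -1.66, -1.19 and -0.24 and a mean of -1.10 ± 0.45 (adjusted p = 0.00126). The SMAD co-repressor genes were less even. Skil, itself induced by TGF-beta, was at -1.15 ± 1.23 (adjusted p = 0.0237), a call that ended without gut 1, 5, 6 or 7 (adjusted p 0.0507 to 0.0593). The Skil call also ended without pairing (adjusted p = 0.0532) and with its most reproducible probe set (adjusted p = 0.235). Even that probe set correlated between batches at only -0.49. Ski averaged -0.67 ± 0.86 (adjusted p = 0.0851), and the test was passed without gut 1 (-0.88).

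The gene values are means of probe sets, so the probe sets describe the calls and are no separate evidence for them. Of the 23 genes, 8 have 1 probe set (Bmp2, Bmp4, Tgfb3, Smad6, Bambi, Bmper, Id1 and Tgif1) and 15 have several, which lay on 1 side of 0 in all 15. All 49 probe sets of the 23 genes lay below 0, and 43 of them passed alone. Of the 63 probe sets of the other 28 genes, 41 lay below 0, and 8 passed as lower and 1 as higher. Where a gene that was not called had several probe sets, they shared a sign in 8 of 19 genes, so its mean can hide opposed values.

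A wider list of the same pathway, chosen by known role, held calls in both directions. Of 62 listed genes 51 were measured, and 10 fell and 6 rose, with a median difference of -0.17. These were 19.6% as falls, against 13.2% of all genes, and 11.8% as rises, against 18.3%, so the wider list lay near the background. Of its 8 targets, 3 fell (Cdkn2b, Snai2 and Msx1, each lower in all 9 guts), 0 rose and 5 did not pass. The 5 were Ccn2 at -0.23 ± 0.91, Snai1 at -0.20 ± 0.94, Msx2 at 0.057 ± 0.36, Atoh8 at -0.98 ± 1.61 (adjusted p = 0.11) and Junb at -0.49 ± 1.51. Snai2, a zinc finger repressor active in migrating neural crest, was at -1.63 ± 0.59 (SD, n = 9, adjusted p = 0.000182), and Msx1, a homeobox target of BMP, at -1.49 ± 0.92 (adjusted p = 0.00155). Cdkn2b, the cell cycle inhibitor p15 induced by TGF-beta, was at -1.48 ± 0.84, and Pmepa1, a TGF-beta target that restrains SMAD2 and SMAD3, at -1.08 ± 0.55. Lefty1, a secreted inhibitor of Nodal, also fell, at -1.28 ± 0.76. In the other direction, Tll2, a protease related to Bmp1, rose by 1.56 ± 0.62, the secreted BMP modulator gene Vwc2 by 1.30 ± 0.37 and the inhibin chain gene Inha by 1.30 ± 0.65, each in all 9 guts.

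Other gene lists moved in the same wells. Of 14 gut mesenchyme markers, which the sort was meant to remove and some of which ENCCs may also express, 6 fell and 0 rose. Their mean was -0.61 ± 0.51 (SD, n = 9 guts), below 0 in 9 of 9 guts. The 6 were Col1a1, Col1a2, Col3a1, Pdgfrb, Osr1 and Twist1. Pdgfra, Foxf1, Dcn and Lum did not pass, and neither did Foxf2, Foxl1, Twist2 and Tcf21, whose means lay above 0. On batch 2 arrays the list lay at -0.87 to 0.22 in GDNF-treated ENCCs and 0.20 to 0.65 in untreated ENCCs, against 1.19 to 1.36 in whole gut. Smooth muscle markers had 0 rises and 0 falls among 8, with a mean of -0.25 ± 0.80. Of 10 neuron markers 7 rose and 0 fell, at a mean of 1.22 ± 0.32, above 0 in 9 of 9 guts. Of 6 ribosomal protein genes, which serve as a guide to RNA quality, 5 fell, at -1.01 ± 0.40 and below 0 in 9 of 9 guts. The hybridisation controls, spiked-in RNAs that carry no signal of the cells, were at -0.749 ± 1.12, lower in 6 of 9 guts. Of the 7 ENCC markers 1, Gfra1, rose and 0 fell, at 0.11 ± 0.54. With these controls as a covariate 25 of the 51 genes fell, 21 of the 23 among them, with a median of -0.87. Over all genes 10.3% then fell, and the calls were 4758, against 5725 without the covariate. The part of mesenchymal cells, of neurons and of RNA quality in the falls of the BMP and TGF-beta genes was not tested, and in these bulk samples fewer cells of a type and less RNA per cell cannot be told apart.

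**Figure D2:**
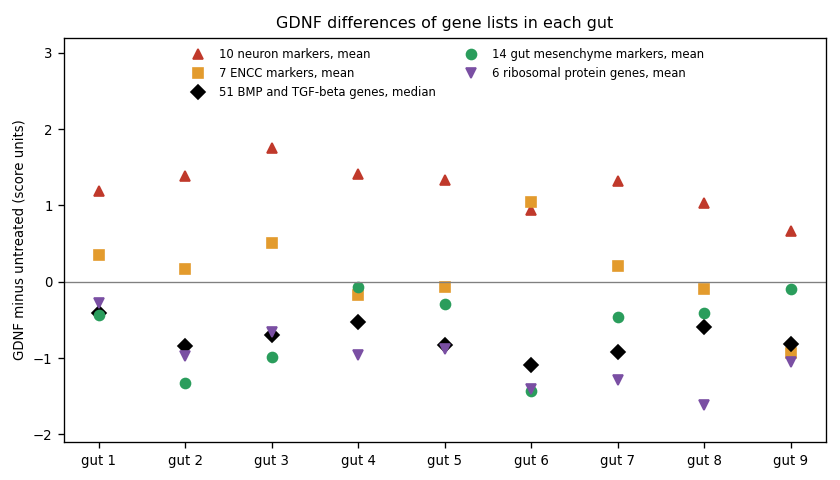
GDNF minus untreated difference (vertical axis, score units) of 5 gene lists in each of the 9 guts (horizontal axis). The median of the 51 BMP and TGF-beta genes (black diamonds) lies between -1.09 and -0.41, neuron markers lie above 0 and ribosomal protein and mesenchyme markers below 0 in every gut.

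The batches were compared for the same genes. Batch 1 holds pairs of 8 guts and batch 2 pairs of 4, and guts 3, 8 and 9 are in both. All 51 genes had a median difference of -0.88 in batch 1 and -0.54 in batch 2. The 23 genes that fell, which were chosen on values from both batches, had a median of -1.27 in batch 1 and -1.23 in batch 2, with all 23 below 0 in batch 1 and 22 in batch 2, and 13 of the 23 were within 1.5 times in size between batches. The exception was Skil, at -1.39 in batch 1 and 0.12 in batch 2. In batch 1 alone 23 of the 51 genes were called, 22 of them the same, and over all genes 29.3% were called, 12.2% as falls. In batch 2 alone limma called 0 of all 18193 genes, with 3516 at an unadjusted p under 0.05, and 0 of the 51, of which 14 were lower and 0 higher at an unadjusted p under 0.05. Adjusted p of the 23 genes was then 0.113 to 0.915. Bambi was at -1.63 and -1.70, Fst at -1.60 and -1.70, and Tgfbi at -1.66 and -1.64 in batches 1 and 2. Id2 was at -0.98 in batch 1 and -0.38 in batch 2, and Id3, not called, at -0.88 and 0.18.

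**Figure D3:**
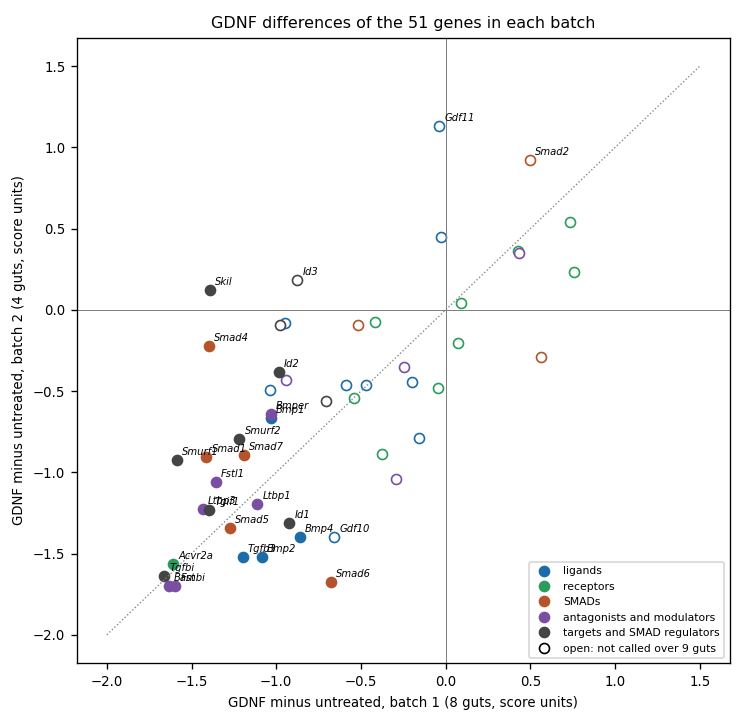
Mean GDNF minus untreated difference of each of the 51 genes in batch 1 (horizontal axis, 8 guts) and batch 2 (vertical axis, 4 guts), in score units, coloured by role and filled where called over 9 guts; the dotted line marks equal values. Of the 23 filled points 22 lie below 0 in both batches, and Skil lies at 0.12 in batch 2.

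The second question was how the genes stand in ENCCs against the whole gut of the same age. It was asked inside batch 2, with 4 GDNF-treated ENCC arrays, 4 untreated ENCC arrays of guts 2, 3, 8 and 9, and the 8 whole guts. Both comparisons use the same whole gut arrays, so they are given side by side. The spread differed strongly between groups: the median SD over the 51 genes was 0.66 in GDNF-treated ENCCs and 0.82 in untreated ENCCs, against 0.13 in whole gut. Limma was therefore fitted with a spread for each group. How far the scaling on ENCC arrays shaped these spreads was not tested.

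Against whole gut, 6 of the 51 genes were higher and 13 lower in GDNF-treated ENCCs, and 8 were higher and 6 lower in untreated ENCCs. Over all genes, 31.9% were called in GDNF-treated ENCCs, 16.0% as higher and 15.9% as lower. In untreated ENCCs 20.7% were called, 9.01% as higher and 11.7% as lower. In the set, 11.8% of genes were higher and 25.5% lower in GDNF-treated ENCCs, and 15.7% were higher and 11.8% lower in untreated ENCCs. All arrays of the 2 groups lay apart in 21 of the 51 genes with GDNF-treated ENCCs, 6 of them higher and 15 lower, against 34.9% of all genes (17.8% higher and 17.1% lower). With untreated ENCCs they lay apart in 16 of the 51, 10 higher and 6 lower, against 27.6% of all genes (12.4% higher and 15.2% lower). The median difference of the 51 genes was -0.36 in GDNF-treated ENCCs and 0.14 in untreated ENCCs, against -0.015 and -0.011 for all genes. With 1 shared spread the counts were 11 and 20 in GDNF-treated ENCCs and 15 and 9 in untreated ENCCs. Without the untreated array of gut 3, 10 genes were higher and 6 lower in untreated ENCCs: the calls of Bmp4 and Grem1 ended, and Inhba and Smad1 passed as higher and Nog and Tgfbr3 as lower. Over all genes 23.8% were then called, 12.5% as lower. Left out in turn, single arrays ended 6 of the 19 calls in GDNF-treated ENCCs and 9 of the 14 in untreated ENCCs. The 13 calls that stayed in GDNF-treated ENCCs were those of Bmp2, Bmp4, Bmp5, Smad6, Smad7, Grem1, Fst, Id1, Id2, Tgfbi and Tgif1, all lower, and of Tgfb2 and Smad2, both higher. The 5 that stayed in untreated ENCCs were those of Bmp5 and Smad6, lower, and Tgfb2, Ltbp1 and Ltbp3, higher.

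**Figure D4:**
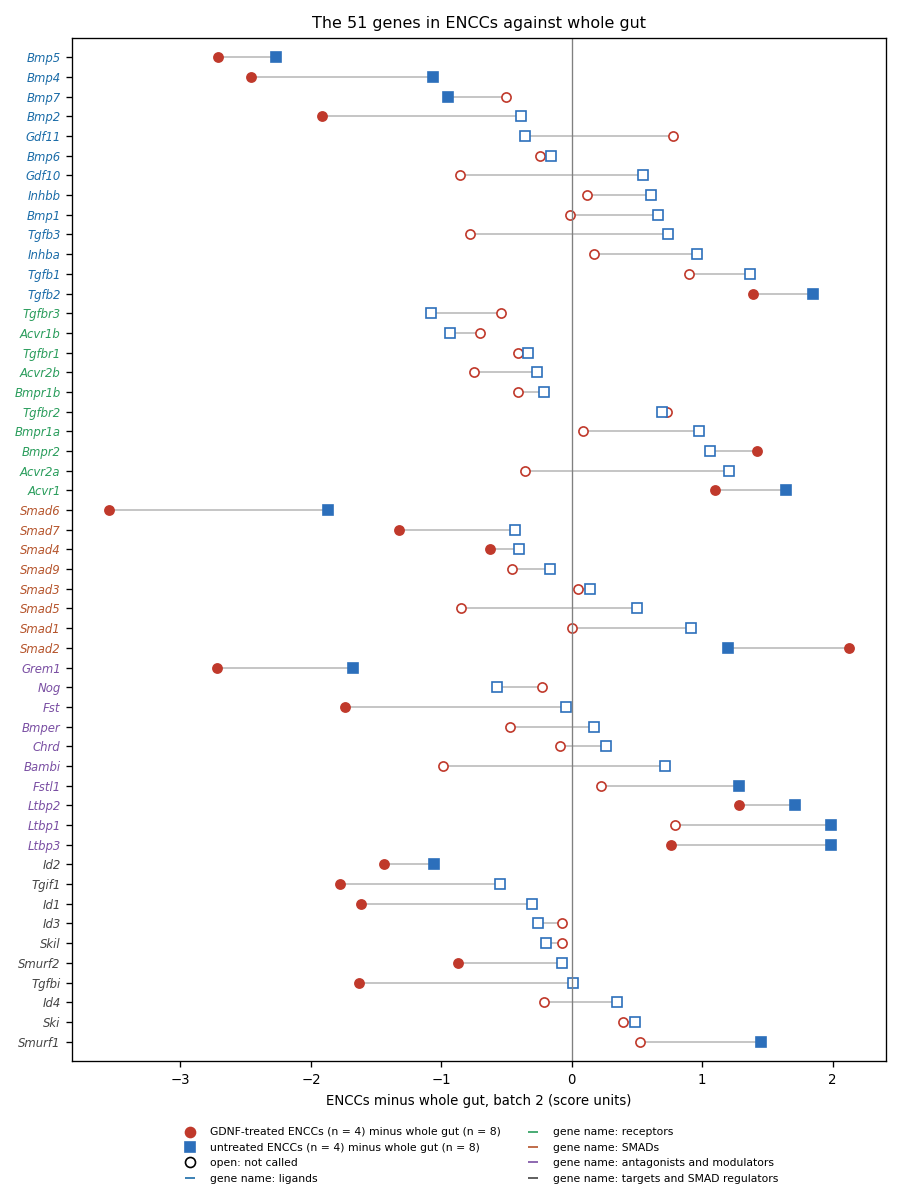
Difference in score from whole gut (horizontal axis, score units) for the 51 genes (vertical axis, grouped by role, names coloured by role) in GDNF-treated ENCCs (red circles, n = 4) and untreated ENCCs (blue squares, n = 4), filled where limma's adjusted p was under 0.05. Smad6, Bmp5, Grem1 and Bmp4 lie to the left of 0 in both, from -3.55 to -1.06, and Tgfb2, Smad2, Ltbp2 and Ltbp3 to the right in both.

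The BMP ligands Bmp4 and Bmp5 were lower than in whole gut in both ENCC groups. Bmp5 had scores of 0.46, -0.81, -0.96 and -0.089 in GDNF-treated ENCCs and -0.45, 0.29, 0.42 and 0.10 in untreated ENCCs of guts 2, 3, 8 and 9, against 2.27 to 2.46, with a median of 2.37, in whole gut. No ENCC array of batch 2 came near the gut values, and the difference was -2.71 with GDNF and -2.27 without (limma adjusted p = 4.89e-06 and 4.44e-05). The GDNF-treated RNA of gut 3 was at 1.96 in batch 1, against -0.81 in batch 2. The most reproducible Bmp5 probe set correlated between batches at only -0.24 over the ENCC RNAs read in both, so single ENCC scores of Bmp5 are imprecise. Bmp4 had -1.21, -1.52, -0.26 and -0.16 in GDNF-treated ENCCs and -0.36, 0.051, 1.16 and 1.61 in untreated ENCCs, against 1.62 to 1.71, with a median of 1.68, in whole gut, with the untreated array of gut 9 just under the lowest whole gut. Its difference was -2.46 with GDNF and -1.06 without (adjusted p = 7.12e-06 and 0.0242), and the untreated call ended without gut 2 (-0.74, adjusted p = 0.181) or gut 3 (-0.87, adjusted p = 0.0617). Bmp2 had -0.93, -2.19, 0.051 and -0.022 in GDNF-treated ENCCs and 0.52, 0.085, 1.07 and 1.32 in untreated ENCCs, against 1.09 to 1.20, with a median of 1.14, in whole gut. The GDNF-treated arrays lay wholly below whole gut (-1.92, adjusted p = 0.000363), and the untreated ones overlapped it (-0.39, adjusted p = 0.333). Bmp7 was lower in untreated ENCCs, at -0.95 (adjusted p = 0.0196), and at -0.50 in GDNF-treated ENCCs, but its 3 probe sets ran from -2.09 to 0.052 in untreated ENCCs, and the most reproducible of them lay at 0.052.

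Tgfb2, a TGF-beta ligand, stood the other way. Tgfb2 had 0.61, 0.75, -0.68 and -1.22 in GDNF-treated ENCCs and 1.19, 0.21, -0.21 and 0.12 in untreated ENCCs, against -1.56 to -1.38, with a median of -1.54, in whole gut. It was higher by 1.39 with GDNF and 1.85 without (limma adjusted p = 0.00367 and 0.000399), with no overlap in either and all 4 probe sets on 1 side in untreated ENCCs. Tgfb1 was at 0.90 with GDNF and 1.36 without (adjusted p = 0.207 and 0.0809), and without whole gut 2 it passed as higher with GDNF (0.97, adjusted p = 0.0363) and without (1.44, adjusted p = 0.00754). Tgfb3 was at -0.78 in GDNF-treated ENCCs and 0.74 in untreated ENCCs, neither called. The remaining ligands, Bmp1, Bmp6, Gdf10, Gdf11, Inhba and Inhbb, were called in neither comparison.

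Among receptors, Acvr1 was higher in GDNF-treated ENCCs by 1.10 and in untreated ENCCs by 1.64 (limma adjusted p = 0.0265 and 0.00945), and Bmpr2 in GDNF-treated ENCCs by 1.42 (adjusted p = 0.0213; untreated 1.06, adjusted p = 0.108). The other 8 receptors, including the BMP receptors Bmpr1a and Bmpr1b and the TGF-beta receptors, were not called. Without GDNF-treated replicate 3, 8 or 9 the Acvr1 call was lost, and without replicate 8 or 9 that of Bmpr2, with an adjusted p of 0.0672 to 0.249 over the calls these arrays ended, which also took in Ltbp2, Ltbp3, Smad4 and Smurf2. Smurf2, at -0.87, also lost its call without GDNF-treated replicate 2 (adjusted p = 0.144) and without whole gut 1, 2, 5, 6, 7 or 8 (adjusted p 0.05 to 0.0543). In untreated ENCCs, replicate 2 ended 6 calls (Acvr1, Bmp4, Fstl1, Id2, Ltbp2 and Smurf1, adjusted p 0.0603 to 0.181), replicate 3 ended 2 (Bmp4 and Grem1, 0.0537 to 0.0617), replicate 8 ended 3 (Bmp7, Fstl1 and Ltbp2, 0.0874 to 0.135) and replicate 9 ended 6 (Acvr1, Bmp7, Fstl1, Grem1, Smad2 and Smurf1, 0.0514 to 0.139).

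Single arrays also stood between a gene and a call. In GDNF-treated ENCCs, Bmp7 passed as lower without replicate 2 (-0.82, adjusted p = 0.0347) and Ltbp1 as higher without replicate 9 (1.22, adjusted p = 0.00608). Tgfb3 passed there as lower without whole gut 3 (-0.81, adjusted p = 0.041) and Smad5 without whole gut 8 (-0.87, adjusted p = 0.0492). In untreated ENCCs, Inhba passed as higher (0.99, adjusted p = 0.0207) and Tgfbr3 as lower (-1.11, adjusted p = 0.0463) without whole gut 3, and Bmpr1a as higher without whole gut 4 (1.03, adjusted p = 0.0407). Without untreated replicate 3, Inhba was at 1.01, adjusted p = 0.0427, Smad1 at 1.13, adjusted p = 0.0346, and Tgfbr3 at -1.46, adjusted p = 0.0104.

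Smad6 was lower and Smad2 higher than in whole gut in both ENCC groups, and Smad7 was lower with GDNF. Smad6 had -0.72, 0.0042, -1.60 and -0.92 in GDNF-treated ENCCs and 0.79, 0.25, 1.82 and 0.61 in untreated ENCCs, against 2.70 to 2.81, with a median of 2.73, in whole gut. The difference was -3.55 with GDNF (limma adjusted p = 9.42e-07), and -1.87 without (adjusted p = 0.00028), and whole gut lay above every ENCC array. Smad7 was at -0.27 ± 0.42 in GDNF-treated ENCCs and 0.62 ± 0.96 in untreated ENCCs (SD, n = 4 each), against 1.05 ± 0.098 in whole gut (n = 8). It was lower with GDNF (-1.33, adjusted p = 0.00191) and was not called without (-0.43). Smad2, a carrier of the TGF-beta signal, had 1.21, -0.61, 1.02 and 0.081 in GDNF-treated ENCCs and -0.82, -0.73, -1.07 and 0.63 in untreated ENCCs, against -1.75 to -1.65, with a median of -1.69, in whole gut. It was higher by 2.12 with GDNF and 1.20 without (adjusted p = 5.98e-05 and 0.00809). Smad4 was lower in GDNF-treated ENCCs, at -0.63 (adjusted p = 0.0197), but not with the median of its probe sets (-0.22, adjusted p = 0.4), and it was at -0.41 in untreated ENCCs, where it was not called. Smad1, Smad3, Smad5 and Smad9 were called in neither comparison.

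Among the modulators, Grem1 was lower and Ltbp2 and Ltbp3 were higher in both ENCC groups than in whole gut. Grem1, an antagonist made by gut mesenchyme and smooth muscle, had -1.23, 0.65, 0.35 and -0.71 in GDNF-treated ENCCs and 1.40, -0.40, 2.74 and -0.50 in untreated ENCCs, against 2.44 to 2.55, with a median of 2.49, in whole gut. The untreated array of gut 8 lay above whole gut, and all other ENCC arrays of batch 2 lay below. Its difference was -2.72 with GDNF and -1.68 without (limma adjusted p = 1.01e-05 and 0.0128). The single probe set of Grem1 correlated between batches at 0.22 over the ENCC RNAs read in both. Ltbp3 had -0.54, -0.13, -0.38 and -0.38 in GDNF-treated ENCCs and 1.42, -0.68, 0.97 and 1.76 in untreated ENCCs, against -1.20 to -1.03, with a median of -1.13, in whole gut, and was higher by 0.76 with GDNF and 1.99 without (adjusted p = 0.0134 and 0.00134). Ltbp1 was higher by 1.99 in untreated ENCCs (adjusted p = 0.000292) and at 0.79 in GDNF-treated ENCCs (adjusted p = 0.0681). Ltbp2 was higher by 1.28 with GDNF and 1.71 without (adjusted p = 0.00841 and 0.0201). The untreated array of gut 9, at -1.79 in Ltbp2, lay below every whole gut (-1.51 to -1.14), so untreated ENCCs and whole gut overlapped. The Ltbp2 call ended without GDNF-treated replicate 9 (adjusted p = 0.0717), and without untreated replicate 2 (1.24, adjusted p = 0.164) or 8 (1.55, adjusted p = 0.11). Fstl1 was higher in untreated ENCCs, by 1.28 (adjusted p = 0.0131; GDNF-treated 0.22). Fst had -0.94, -0.86, 0.01 and -1.09 in GDNF-treated ENCCs and 1.27, 0.069, 1.32 and 1.26 in untreated ENCCs, against 0.77 to 1.25, with a median of 1.02, in whole gut. Untreated ENCCs thus overlapped whole gut in Fst (-0.041), and GDNF-treated ENCCs lay below it (-1.74, adjusted p = 0.00198).

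Bambi showed the 3 groups in another order. It had -0.91, -1.51, -0.39 and -0.14 in GDNF-treated ENCCs and 0.80, -0.24, 1.68 and 1.62 in untreated ENCCs, against 0.079 to 0.52, with a median of 0.21, in whole gut. Whole gut lay between the means of the ENCC groups, the GDNF-treated arrays lay wholly below it, and neither difference was called (-0.99 with GDNF, limma adjusted p = 0.0719, and 0.71 without, adjusted p = 0.324). Nog had -0.22, -0.36, 0.033 and 0.59 in GDNF-treated ENCCs and -0.72, 1.39, -0.83 and -1.20 in untreated ENCCs, against 0.043 to 0.38, with a median of 0.23, in whole gut, with overlap in both comparisons. The untreated array of gut 3 lay above whole gut in Nog and the other 3 below it, and without that array Nog was lower in untreated ENCCs (-1.15, adjusted p = 0.0144). With all arrays Nog, Chrd and Bmper were called in neither.

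**Figure D5:**
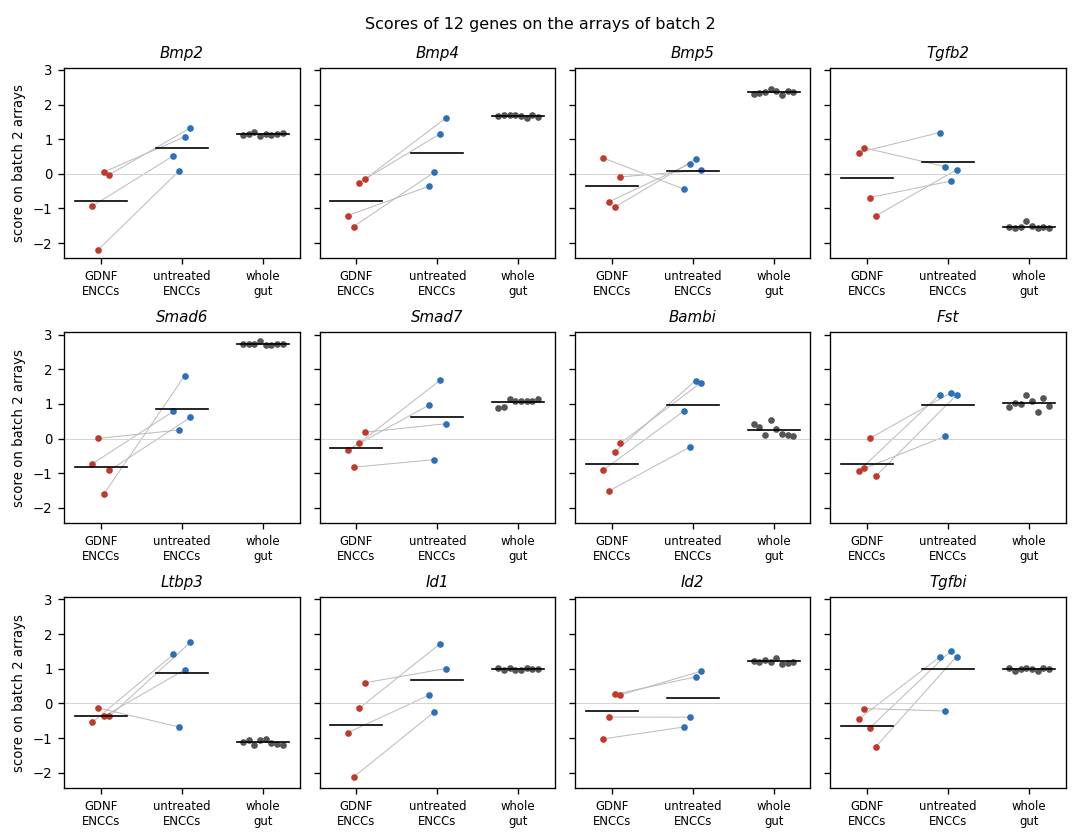
Scores (vertical axis, score units) of 12 genes on the batch 2 arrays of GDNF-treated ENCCs (red, n = 4), untreated ENCCs (blue, n = 4) and whole gut (grey, n = 8). Points are arrays, bars are group means and grey lines join the wells of 1 gut; the whole guts lie close together while ENCC arrays spread, and in Smad6, Bmp5, Bmp4 and Id2 every whole gut lies above every ENCC array.

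Of the targets, Id2 was lower in ENCCs than in whole gut with and without GDNF. It had -1.02, -0.39, 0.26 and 0.24 in GDNF-treated ENCCs and -0.68, -0.40, 0.77 and 0.93 in untreated ENCCs, against 1.15 to 1.30, with a median of 1.20, in whole gut, with no overlap. The difference was -1.44 with GDNF and -1.06 without (limma adjusted p = 0.000429 and 0.0209). The untreated call ended without replicate 2 (-0.78, adjusted p = 0.159) and with the most reproducible probe set (-0.92, adjusted p = 0.15). Id1, Tgfbi and Tgif1 were lower in GDNF-treated ENCCs, by differences of -1.62, -1.63 and -1.78 (adjusted p = 0.002, 5.79e-05 and 0.00114), and were not called in untreated ENCCs, where they lay at -0.31, 0.0057 and -0.55. For Tgfbi, the GDNF-treated arrays had -0.46, -0.15, -0.70 and -1.26 and the untreated ones 1.34, -0.22, 1.52 and 1.35, against 0.93 to 1.03, with a median of 0.999, in whole gut. The untreated arrays of guts 2, 8 and 9 lay above whole gut and that of gut 3 below it. Smurf1 was higher in untreated ENCCs, by 1.45 (adjusted p = 0.018; GDNF-treated 0.52). Id3, Id4, Ski and Skil were called in neither comparison. A call in one ENCC group and not in the other does not by itself show that the groups differ, and the paired GDNF test above is the test of that difference.

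In the wider list of 51 measured pathway genes, 6 were higher and 6 lower in GDNF-treated ENCCs, and 4 were higher and 5 lower in untreated ENCCs, than in whole gut. With GDNF these were 11.8% as higher and 11.8% as lower, against 16.0% and 15.9% of all genes, and without it 7.84% and 9.80%, against 9.01% and 11.7%, so all 4 shares lay below those over all genes. Acvrl1 and Eng, a receptor and a co-receptor known from endothelium, were lower in both, at -1.15 and -1.78 with GDNF and -1.84 and -1.20 without, as were all 8 endothelial markers. Whole gut holds epithelium, mesenchyme, muscle and vessels, and a lower score in ENCCs cannot be told apart from a gene that these other cells express more. The culture is described for ENCCs only, and culture and cell type cannot be told apart.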

How the data were processed

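RNA of 25 ENCC arrays and 8 whole gut arrays was read on Affymetrix arrays, and the deposited values are scores: in each array the values equal normal quantiles of their ranks (largest deviation 5e-06 over 45101 probe sets, highest score 4.084). RMA is named in the submitters' processing notes, without a version, and the step to scores was read from the values themselves: probe set means over the 7 ENCC RNAs present in both batches scattered around 0 with an SD of 0.0585 (batch 1) and 0.117 (batch 2), as centring within each batch would leave them. Treated wells entered that scaling. Other tools are not given in the sources used here. The number of arrays limits the precision, since the scores carry no depth.

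Probe sets with exactly 1 gene symbol in the platform annotation (34945) were averaged to 18193 genes, and 64 control probe sets were left out. GDNF was tested with limma 3.58.1 in R 4.3.3 (lmFit, eBayes) on treated minus untreated differences taken within a gut and a batch, averaged for the 3 guts with pairs in both batches, and adjusted by Benjamini-Hochberg over all genes at 0.05. The pairing comes from the treatment protocol, which divides the cells of a gut over a treated and an untreated well, and the gut number from the titles. ENCCs and whole gut were compared within batch 2. The design called for limma with 1 spread for both groups, with a spread for each group (arrayWeights with var.group, statmod 1.5.0) as the alternative. On simulated data, limma's unadjusted p was under 0.05 in 18.3% (untreated) and 19.1% (GDNF-treated) of unchanged genes with the planned fit. With a spread for each group these shares were 6.17% and 6.91%, still above that threshold. After adjustment the planned fit called 4.17% and 4.65% of unchanged genes, against 0.117% and 0.272%. The less liberal fit, with a spread for each group, is reported, and the counts of the planned fit are given beside it. Calls against whole gut may still hold more false ones than the threshold states.

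All 51 genes are named by role. The lowest, median and highest value over guts are given for genes that passed for GDNF with 1 sign in all 9 guts and for Bmp2, Bmp4, Tgfb1, Tgfb2, Bambi, Nog, Id1 to Id4, Smad6, Smad7 and Tgfbi, and values of single arrays against whole gut for some of these and, chosen after their values were seen, for Bmp5, Smad2, Grem1 and Ltbp2. Genes of the wider list are named where they passed with 1 sign in all guts. Its targets that did not pass are named beyond that rule, and Acvrl1 and Eng were added after their values were seen. The genes, lists and tests were chosen with earlier results of these data known. Alternatives were each batch alone, no pairing, other summaries of probe sets, the hybridisation controls as a covariate, robust eBayes, a minimum difference of 1, and each replicate left out. The most reproducible probe set of a gene had the highest correlation between batches over the ENCC RNAs read in both, treated and untreated. That choice is not independent of the GDNF difference.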

Additional observations from a re-analysis of the deposited data

Results flagged for a closer look

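Of 204 groups of values examined (each gene's 9 GDNF differences and its 3 groups of batch 2 arrays), 15 (7.35%) held 1 sample far from the others by Dixon's criterion, where chance gives about 5%. The untreated array of gut 3 in batch 2 was that sample in 5 of them: Chrd at 2.06 (the other untreated arrays at -0.80 to -0.32), Fst at 0.069 (others 1.26 to 1.32), Id3 at -1.66 (others 0.55 to 0.86), Tgfbi at -0.22 (others 1.34 to 1.52) and Smurf2 at -0.72 (others 0.90 to 1.22). The same RNA had the lowest correlation between batches. Among GDNF differences, Acvr2a in gut 2 was at -4.05 (others -2.22 to -0.47), Bmp1 in gut 9 at -2.02 (others -0.997 to -0.38) and Id3 in gut 4 at 1.57 (others -1.41 to -0.022). Among GDNF-treated arrays, Acvr1b in gut 3 was at 0.83 (others -0.26 to -0.095) and Ltbp1 in gut 9 at -1.81 (others -0.18 to 0.066), and among untreated arrays Gdf11 in gut 9 was at -2.57 (others -0.044 to 0.082). In whole gut, where arrays lay close together, replicate 4 stood apart in Smad6 at 2.81 (others 2.70 to 2.74), Tgfb2 at -1.38 (others -1.56 to -1.52) and Id3 at 0.43 (others 0.35 to 0.38), and replicate 2 in Tgfb1 at -0.63 (others -1.38 to -1.06).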

How the results depend on the processing

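Of the 23 genes that fell with GDNF, 16 stayed called under every planned setting other than a left-out gut and batch 2 alone, and the exceptions were Bmp1, Bmp4, Bmper, Id1, Id2, Skil and Smad6. In batch 2 alone (4 guts) the count was 0, and Skil lay at 0.12 (adjusted p = 0.915). Without the replicate block, that is without pairing the wells of a gut, 19 genes fell and 1 (Smad2) rose, while 10.6% of all genes fell. With the most reproducible probe set of each gene 26 fell and 2 rose, while 14.4% of all genes fell. That choice of probe set used RNAs of both wells and can favour one that differs with GDNF. Leaving out 1 gut gave 21 to 25 falls and 0 to 2 rises, with 1 rise (Smad2) without gut 3 and 2 (Smad2 and Acvr1b) without gut 9. Over all genes 11.1% to 13.9% then fell.

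Against whole gut, the planned fit with 1 spread for both groups gave 11 higher and 20 lower in GDNF-treated ENCCs and 15 higher and 9 lower in untreated ENCCs. A minimum difference of 1 score unit left 1 higher and 4 lower in GDNF-treated ENCCs, and 0 higher and 1 lower in untreated ENCCs. Over all genes it left 9.17% in GDNF-treated ENCCs, 3.51% as lower, and 3.22% in untreated ENCCs, 1.98% as lower. Leaving out 1 array gave 4 to 7 higher and 11 to 14 lower in GDNF-treated ENCCs. In untreated ENCCs it gave 4 to 10 higher and 4 to 7 lower, with 4 higher without replicate 2 and without replicate 9. Over all genes these settings called 25.7% to 32.4% in GDNF-treated ENCCs and 12.5% to 23.8% in untreated ENCCs. Bmp7 in untreated ENCCs lay at 0.052 with its most reproducible probe set (adjusted p = 0.977). The causes of these changes were not tested, and some settings leave fewer guts or arrays. Robust eBayes changed no count of the 51 genes.

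The scores hold ranks and give no fold change, level or move shared by every gene. A gene that was not called is not shown to be equal, least of all against whole gut, where 4 ENCC arrays enter.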
